A study of Mus musculus with 9 samples.

Results

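Mitochondrial ribosomal protein genes encode the proteins of the mitoribosome, the organelle's own ribosome. The genes analysed were all rows of the count table whose symbol was Mrpl or Mrps followed by a number and at most 1 letter, without pseudogenes. The rule found 75 of 33495 genes, 46 named for the large subunit and 29 for the small subunit, on 17 chromosomes. By subunit they counted as 48 large and 26 small, because Mrps18a and Mrps30 were taken as large-subunit members and Mrps36 as neither. Read counts came from RF8 mouse embryonic stem (ES) cells carrying 1 of 3 transfected constructs, EGFP as the control, Nanog WT, or Nanog L122A, a homeodomain mutant of the pluripotency transcription factor Nanog. Each transfectant was grown in 3 cultures, giving 9 libraries with 1 library per combination. The LIF culture was the routine one, with 15% serum, 1000 units of LIF per ml and puromycin. LIF is the cytokine that holds mouse ES cells undifferentiated. The table's columns for the 3 LIF libraries name their culture by a word that no label holds, and were matched by elimination, so every comparison with LIF rests on that match. The no-LIF culture lacked it, and the RA culture lacked LIF and held 5 µM retinoic acid (RA), which drives ES cells to differentiate. The sources used here do not give the time in culture, the promoter of the constructs or whether a transfectant was 1 clone or a pool.

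The mitoribosome translates the few proteins that mitochondrial DNA encodes, all of them core parts of the respiratory chain and ATP synthase. Its RNAs are encoded in the mitochondrial genome, whereas every one of its proteins is encoded in the nucleus, made in the cytosol and imported. Many members descend from bacterial ribosomal proteins, and others were added in mitochondria. One gene of the set, Mrps36, carries a ribosomal name but is now known as an adaptor subunit of the alpha-ketoglutarate dehydrogenase complex.

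Libraries held 24166395 to 28714988 counts in genes. Genes named as ribosomal RNA took 4.30% to 4.72% of counts in the 3 RA libraries and 7.87% to 11.8% in the other 6. The RA libraries also differed in cell identity: summed levels of 10 ES cell markers were 39.7 (EGFP), 342 (WT) and 931 (L122A) CPM (counts scaled to library size) with RA, against 2164 to 5602 in the other 6 libraries. Of these markers 7 of 10 fell from LIF to RA, and all 9 tested extraembryonic endoderm markers rose. Summed endoderm markers were 3411, 2109 and 824 CPM in RA, against 169 to 1082 elsewhere. Most of each RA sum was Sparc, at 3136, 1593 and 655 CPM. Sparc was also most of the highest sum elsewhere, at 1021 CPM in EGFP without LIF. These sums, and their order over transfectants, thus mainly give the level of Sparc. In EGFP, Lama1 was not higher with RA (20.5 CPM) than with LIF (24.0 CPM). Fibroblast markers summed to 409, 56.1 and 23.3 CPM in RA and 8.05 to 29.1 elsewhere, with 6 of 7 tested higher in RA, and Fap and Lum at 0 counts in every RA library. Nanog itself was at 0.871 CPM in EGFP with RA and at 195 (WT) and 258 (L122A) CPM with RA. Without RA it was higher in EGFP (384 and 290.3 CPM) than in either Nanog transfectant (129.9 to 239 CPM), and transgene and endogenous reads were not separated. Nanog levels thus went with the transfectant labels only with RA. They do not check WT against L122A or the match of the LIF columns.

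The promoters below are shown because their genes gave the 4 largest falls with RA among members with a listed promoter, and, for Mrps6, the smallest change of all. Each runs from 250 bases before to 50 bases after the RefSeq gene start (GRCm38.p6), 5′ to 3′ on the plus strand, where all 5 genes lie. They cover chr19:4962056-4962355, chr11:120484387-120484686, chr5:96209865-96210164, chr13:99344536-99344835 and chr16:92058086-92058385. Capitals mark matches on either strand to 6 motifs: GCGCA, any base and GCGC for NRF1, CCGGAAG for ETS factors, AANATGGCG for YY1, CACGTG for the E-box, CCAAT, and GGGCGG for the GC box.
Mrpl11: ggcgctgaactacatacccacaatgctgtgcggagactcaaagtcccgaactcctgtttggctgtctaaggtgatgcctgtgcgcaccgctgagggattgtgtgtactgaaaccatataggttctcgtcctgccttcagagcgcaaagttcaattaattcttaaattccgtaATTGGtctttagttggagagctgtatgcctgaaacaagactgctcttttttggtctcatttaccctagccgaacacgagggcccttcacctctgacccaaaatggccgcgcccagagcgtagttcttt
Mrpl12: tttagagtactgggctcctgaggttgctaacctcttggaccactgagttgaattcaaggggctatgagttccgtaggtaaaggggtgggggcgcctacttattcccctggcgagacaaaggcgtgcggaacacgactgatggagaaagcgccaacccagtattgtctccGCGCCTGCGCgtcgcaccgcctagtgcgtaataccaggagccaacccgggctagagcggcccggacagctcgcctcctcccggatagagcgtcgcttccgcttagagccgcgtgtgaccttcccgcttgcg
Mrpl1: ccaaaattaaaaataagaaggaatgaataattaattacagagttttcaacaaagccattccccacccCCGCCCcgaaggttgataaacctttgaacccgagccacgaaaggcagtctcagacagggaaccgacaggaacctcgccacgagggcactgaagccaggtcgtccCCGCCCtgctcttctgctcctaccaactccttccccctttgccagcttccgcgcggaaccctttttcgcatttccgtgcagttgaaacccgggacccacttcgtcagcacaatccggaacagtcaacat
Mrps27: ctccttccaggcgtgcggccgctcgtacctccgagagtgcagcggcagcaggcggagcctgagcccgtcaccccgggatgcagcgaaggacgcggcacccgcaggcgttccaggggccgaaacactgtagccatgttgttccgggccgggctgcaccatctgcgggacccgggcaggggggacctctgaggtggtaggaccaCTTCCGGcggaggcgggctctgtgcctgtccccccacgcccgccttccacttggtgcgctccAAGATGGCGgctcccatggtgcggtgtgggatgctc
Mrps6: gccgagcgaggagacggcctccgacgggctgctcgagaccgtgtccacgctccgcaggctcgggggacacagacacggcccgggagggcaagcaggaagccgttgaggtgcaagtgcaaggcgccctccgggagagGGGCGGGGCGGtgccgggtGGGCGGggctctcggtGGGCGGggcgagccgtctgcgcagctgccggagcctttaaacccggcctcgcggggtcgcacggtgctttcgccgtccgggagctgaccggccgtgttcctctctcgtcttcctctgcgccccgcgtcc
The Mrpl11 promoter held a CCAAT letter match only, Mrpl12 an NRF1 match, Mrpl1 a pair of GC boxes and Mrps27 an ETS and a YY1 match. Mrps6 held 4 GC box matches, of which the first pair overlapped.

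Promoters were listed for 66 of 75 members, among which Mrpl15 was missing. NRF1 and the ETS factor GABP are transcription factors known for activating nuclear genes of mitochondrial proteins. The ETS letters were in 24 of the 66 members (36.4%) and in 19.2% of 8930 tested genes with a listed promoter (9.93% of all 27025 listed genes). NRF1 letters were in 12 members (18.2%, against 11.4% of tested and 5.19% of listed genes), and YY1 letters in 9 (13.6%, against 5.79% and 2.76%). The E-box was in 5 members (7.58%, against 12.1% of tested genes), CCAAT in 26 (39.4%, against 43.5%) and the GC box in 32 (48.5%, against 70.4%). These shares are descriptions of letters, and matches of 2 different motifs overlapped in 2 of the 72 listed member promoters. Of 38 members with a promoter that were at least 2-fold lower with RA than with LIF by the fitted value, 13 held the ETS letters and 6 the NRF1 letters. Of the other 27 tested members, 10 and 6 did.

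Members were abundant in these cells. Their median over genes of the mean FPKM (fragments per kilobase, scaled to library size, which compares genes of unequal length) was 36.1, against 4.82 over all tested genes. The highest mean FPKM were those of Mrpl13 (218), Mrpl11 (203), Mrpl18 (185), Mrpl52 (170.0) and Mrps16 (145). Mrpl13, Mrpl11 and Mrpl18 are large-subunit proteins with bacterial counterparts, Mrpl52 is specific to mitochondria, and Mrps16 is a small-subunit protein. The lowest were Mrpl53 (3.39), Mrps5 (5.66), Mrps34 (6.05), Mrpl48 (8.15) and Mrps26 (8.99). Mrpl53 had a 95-base feature with 1 to 24 counts per library and was the 1 member that missed the filter of at least 1 CPM in at least 3 libraries, so 74 members were tested. Mrpl18 shares its locus with Tcp1, which had 147191 counts over all libraries against 36431 for Mrpl18. Mrpl48 overlaps Rab6 (23479 counts against 9762 for Mrpl48) and Mrpl14 overlaps Tmem63b (6226 against 10782 for Mrpl14). In all 19 members overlapped another gene, and reads of overlapping genes may be shared because how the counting handled strand is not stated in the sources used here.

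Members took fewer reads with RA in all 3 transfectants. They held 0.357% of counts in EGFP with RA, 0.335% in WT and 0.371% in L122A. The LIF libraries gave 0.589%, 0.644% and 0.597% and the no-LIF libraries 0.554%, 0.529% and 0.620% in the same order, so the RA libraries did not overlap the others. After scaling by trimmed-mean (TMM) factors, the summed level in EGFP was 5651 CPM with LIF, 5693 without and 3187 with RA. In WT it was 7851, 5632 and 2742 CPM, and in L122A 6508, 7656 and 2953 CPM. All 3 RA libraries were thus below all others, while no-LIF was level with LIF in EGFP, lower in WT and higher in L122A.

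**Figure D1:**
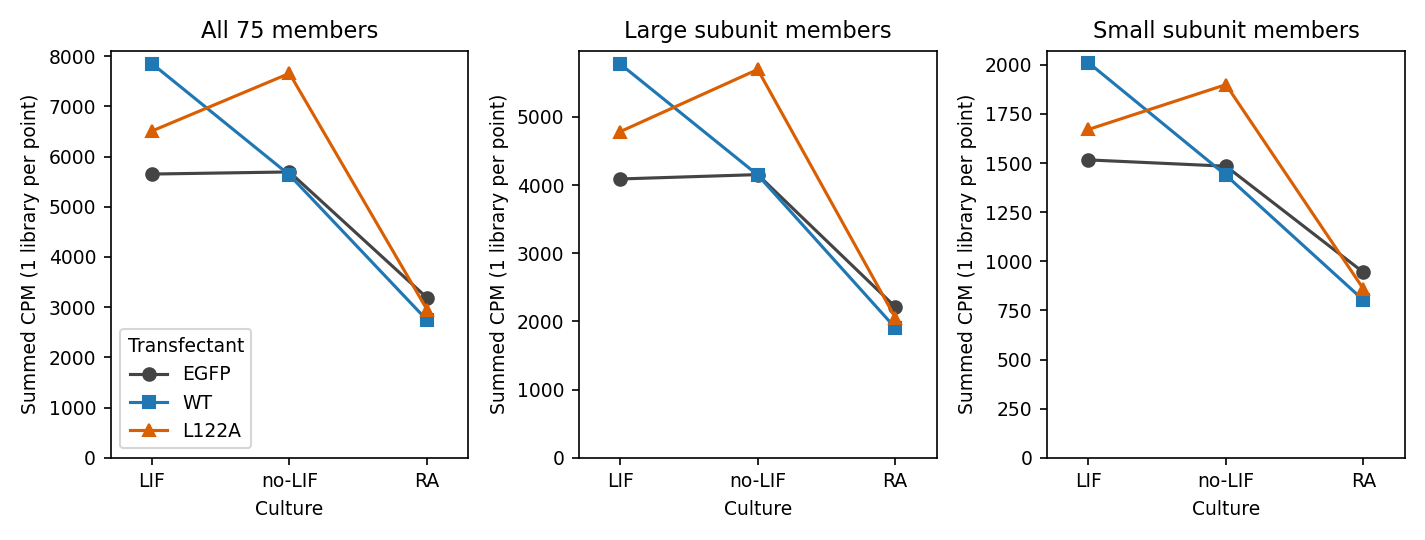
Summed CPM (y axis, from 0) of all 75 members, the large-subunit members and the small-subunit members by culture (x axis) and transfectant, 1 library per point and no error bars. The 3 RA libraries sit at 2742 to 3187 CPM for all members, below every LIF and no-LIF library.

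From LIF to RA, 66 of 74 members fell and none rose. The background was 23.8% of the 13996 tested genes called lower and 24.5% called higher, so the share of members that fell was above the share of all genes that did. The median log2 fold change of the members was -1.06, against 0.01 for all genes tested, and all 74 fitted values were below that all-gene median. At least 2-fold falls that passed the test numbered 42. The test was edgeR's quasi-likelihood test in an additive model of culture and transfectant, with Benjamini-Hochberg adjustment over all genes. With 1 library per combination its p-values ask whether a culture effect repeats over the 3 transfectants, not over replicate cultures. In bulk RNA, fewer cells of a type and less RNA per cell cannot be told apart, and the part of the shift in cell markers in this result was not tested.

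Mrpl15, a large-subunit protein with a bacterial counterpart, fell most. Its levels were 295, 510.2 and 377 CPM with LIF in EGFP, WT and L122A, 230.2, 358 and 492 CPM without LIF, and 85.7, 76.6 and 95.7 CPM with RA. The 3 RA libraries lay close together and far below the other 6. The log2 fold change from LIF was -2.16 (SE 0.26, adjusted p = 0.000625 by edgeR's quasi-likelihood test), a 4.48-fold fall. Mrpl11, a protein of the base of the stalk where translation factors bind, had 182, 284 and 211 CPM with LIF, 207, 196 and 279.7 without, and 55.9, 56.7 and 63.7 with RA. It fell by 1.94 on the log2 scale (SE 0.22, adjusted p = 5e-04, edgeR). Mrpl12, the stalk protein itself, had 198, 264 and 212 CPM with LIF, 227, 194 and 248 without, and 77.1, 53.9 and 62.6 with RA.

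Mrpl12 fell by 1.81 (SE 0.22, adjusted p = 0.000635, edgeR). Mrpl1, of the L1 stalk beside the tRNA exit site, had 109, 194 and 120.5 CPM with LIF, 117, 130.1 and 172 without, and 41.7, 37.5 and 39.6 with RA. Its log2 fold change was -1.80 (SE 0.25, adjusted p = 0.00105, edgeR). In these 4 genes, too, every RA library lay below the other 6. Mrps27, a mitochondria-specific small-subunit protein of the pentatricopeptide repeat family, had 46.6, 59.6 and 54.4 CPM with LIF, 46.3, 42.4 and 61.4 without, and 17.7, 15.2 and 15.2 with RA. It fell by 1.74 (SE 0.21, adjusted p = 0.00066, edgeR). Its RA libraries did not overlap the others either. These 5 genes kept the call in each of the 16 alternative fits.

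**Figure D2:**
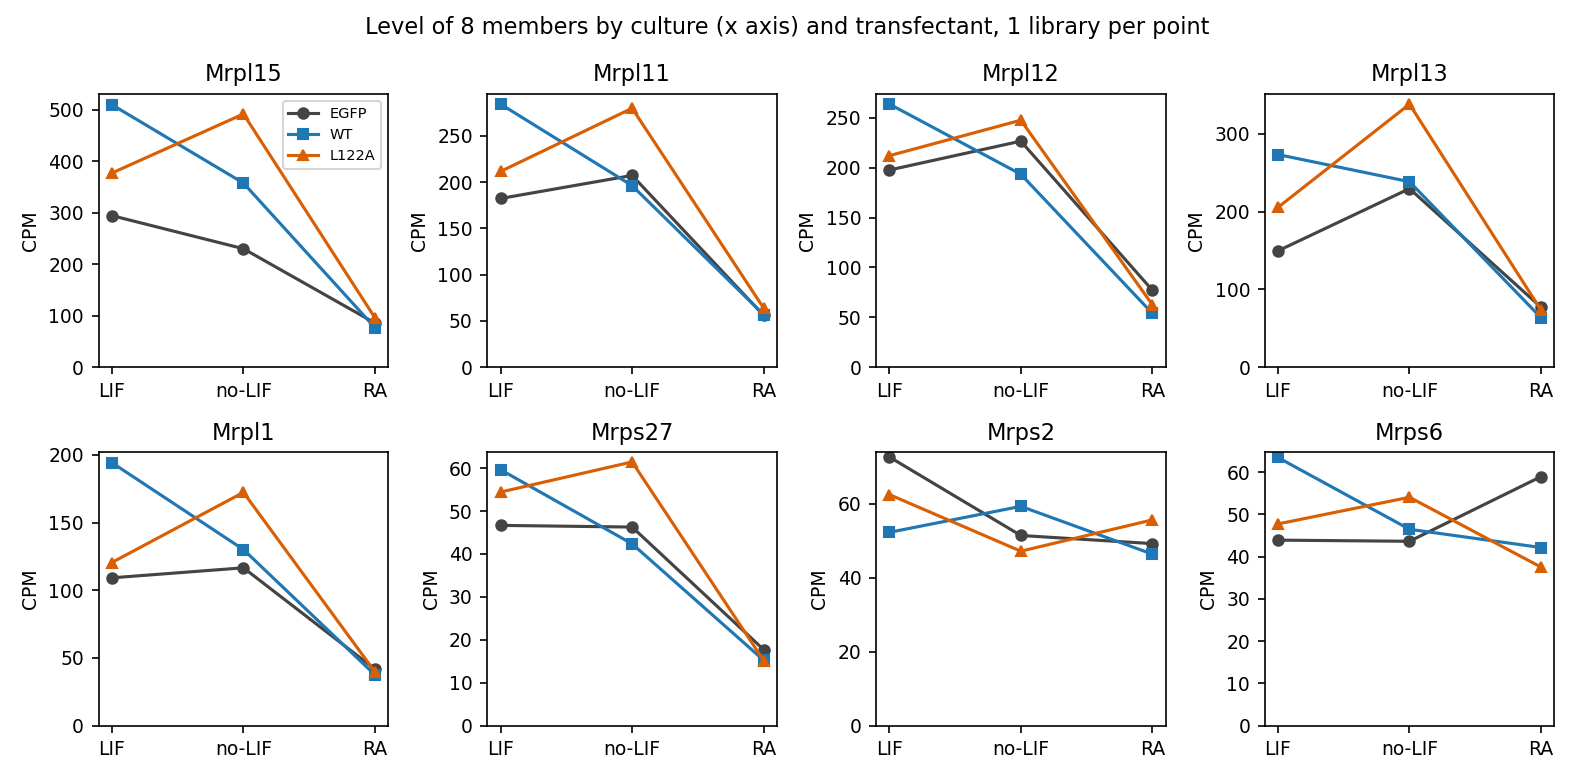
CPM (y axis, from 0) of 8 members by culture (x axis), 1 library per point, with EGFP, WT and L122A as separate lines and no error bars. Mrpl15, Mrpl11, Mrpl12, Mrpl13, Mrpl1 and Mrps27 have all RA libraries below all others, whereas the cultures overlap for Mrps2 and Mrps6.

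The fall spanned all classes of member. Of 30 tested large-subunit members with a bacterial counterpart, 28 fell (median log2 fold change -1.26). Of 17 large-subunit members specific to mitochondria 16 fell (median -0.96), of 16 small-subunit members with a bacterial counterpart 13 (median -0.97), and of 10 specific to mitochondria 8 (median -1.02). Mrps36 also fell (-0.69, SE 0.20, adjusted p = 0.0212, edgeR). The 3 genes named for the S18 protein all fell: Mrps18b by 1.36, Mrps18c by 1.24 and Mrps18a by 0.70.

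The summed level of large-subunit members over that of small-subunit members was 2.35, 2.38 and 2.40 in the RA libraries of EGFP, WT and L122A. In the other 6 libraries it was 2.70 to 3.00. A mean over genes that weights every member alike gave the same order: large-subunit members exceeded small-subunit members by 0.45 to 0.53 in mean log2 CPM with RA and by 0.61 to 0.71 without. This ratio does not depend on library scaling, and it has no test of its own. By class, only large-subunit members with a bacterial counterpart had a lower median from LIF to RA (-1.26) than the small-subunit classes (-0.97 and -1.02). The median of mitochondria-specific large-subunit members (-0.96) was near those of the small subunit. Members with higher levels tended to have the more negative fold change (Pearson's r across 74 members was -0.34 with log2 mean FPKM and -0.47 with log2 mean CPM; the level is measured in the same libraries).

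**Figure D3:**
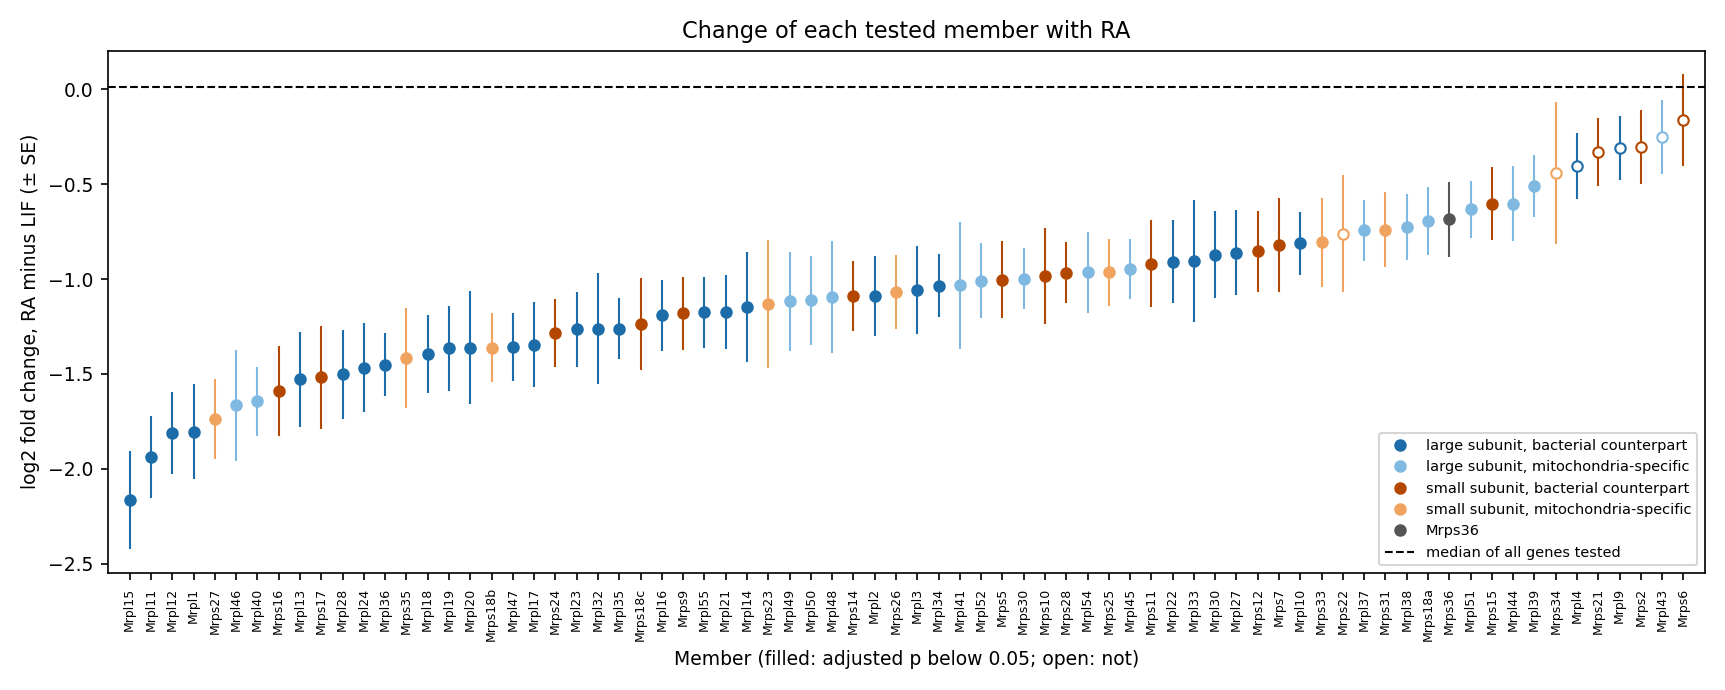
Fitted log2 fold change from LIF to RA (y axis) of the 74 tested members in order of size (x axis), with SE bars; colours give the class, filled points passed the test and open points did not, and the dashed line is the median of all genes. All points lie below the all-gene median of 0.01, from -2.16 for Mrpl15 to -0.16 for Mrps6.

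The 8 members that did not pass were Mrps22, Mrps34, Mrpl4, Mrps21, Mrpl9, Mrps2, Mrpl43 and Mrps6. Mrps6, on the small-subunit platform in bacteria, had 43.9, 63.5 and 47.7 CPM with LIF, 43.6, 46.5 and 54.0 without, and 58.9, 42.2 and 37.5 with RA. The cultures overlapped, and in EGFP the RA library was the highest (log2 fold change -0.16, SE 0.24, adjusted p = 0.6, edgeR). Mrps2 had 72.7, 52.2 and 62.5 CPM with LIF and 49.2, 46.4 and 55.6 with RA, overlapping likewise (-0.30, SE 0.19, adjusted p = 0.223, edgeR). Mrpl9 had narrow ranges of 42.4 to 43.7 CPM with LIF and 31.6 to 37.8 with RA, which did not overlap, but its difference of -0.31 (SE 0.17) missed the threshold (adjusted p = 0.162, edgeR). Mrps34, at 1.69 to 4.05 CPM, was the least abundant tested member by CPM.

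From no LIF to RA, 59 members fell and none rose (background 21.9% called lower and 22.6% higher; median -0.96 against 0.02 for all genes). This comparison shares its RA libraries with the one above. The largest falls were those of Mrpl15 (-2.00, SE 0.26), Mrpl11 (-1.95, SE 0.22), Mrpl13 (-1.89, SE 0.25), Mrpl1 (-1.80, SE 0.25) and Mrpl12 (-1.79, SE 0.22). Mrpl13, the most abundant member per length, had 149, 273 and 205 CPM with LIF, 229, 238 and 338 without, and 76.9, 63.4 and 73.2 with RA. Its adjusted p from no LIF to RA was 0.00106 (edgeR). In 67 of 74 members every RA library was below all 6 others, a pattern that 21.8% of all tested genes had.

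How far these levels fall depends on the scaling. With library sizes alone, the median of all genes rose to 0.39 from LIF to RA and 0.43 from no LIF to RA, and 4501 genes were called higher and 1947 lower from LIF to RA. Members then fell in 44 and 36 genes, none rose, and their medians were -0.68 and -0.55. Relative to all genes the members were at -1.07 in both scalings from LIF to RA. Leaving out the WT library with RA gave 43 and 38 members called lower.

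From LIF to no LIF no member passed the edgeR test (0 of 74; background 0.0714% of genes called), with 3 members at an unadjusted p below 0.05, and DESeq2 and limma also called none. The median was -0.12, against 0.00 for all genes. Mrpl36, a short large-subunit protein with a bacterial counterpart, had the smallest p. Its levels were 66.0, 71.7 and 77.0 CPM with LIF, 48.4, 45.6 and 61.1 without, and 24.3, 25.8 and 28.5 with RA. All no-LIF libraries were below all LIF libraries (log2 fold change -0.48, SE 0.16, adjusted p = 0.428, edgeR). Such order without overlap from LIF to no LIF occurred in 6 of 74 members and 5.29% of all tested genes.

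When LIF was withdrawn, most members in each transfectant changed less than the limit used here, though 20 of 74 in WT were lower. With 1 library a side, no test is possible, and a difference was a ratio of at least 1.5-fold in which the higher value reached 5 CPM. In EGFP 1 member was higher (Mrpl13; background 11% of genes) and 1 lower (Mrps5; background 10.0%), and the median stood 0.01 below that of all genes. In WT 20 members were lower and none higher (background 10.3% lower), with the median 0.44 below. In L122A 4 members were higher and none lower (background 7.28% higher), with the median 0.15 above. The 4 of 74 members in L122A were a smaller share than the background, and the difference between WT and L122A was not tested.

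Mrpl46, a mitochondria-specific large-subunit protein, was 2.36-fold lower without LIF in WT (22.6 against 53.3 CPM, 95% exact interval 2.13 to 2.62, counting error only). Mrps23, of the small subunit, was 2.33-fold lower there (interval 2.17 to 2.49) and Mrpl14 2.00-fold lower (interval 1.85 to 2.16). In L122A Mrpl48 was 1.98-fold higher without LIF (81.7 against 41.3 CPM, interval 1.82 to 2.15), Mrpl13 1.65-fold and Mrpl33 1.58-fold. Whether the response to LIF withdrawal differed between the Nanog transfectants and EGFP was tested in a model of class by culture, and 0 of 74 members passed by edgeR (background 0.0% of genes). None had an unadjusted p below 0.05, and Mrpl23 had the smallest (-0.57, SE 0.37, adjusted p = 0.772, edgeR). The error in this test came only from differences between WT and L122A within a culture, with 1 EGFP library per culture. WT and L122A differed in direction here, so the test had little power to find a difference from EGFP.

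**Figure D4:**
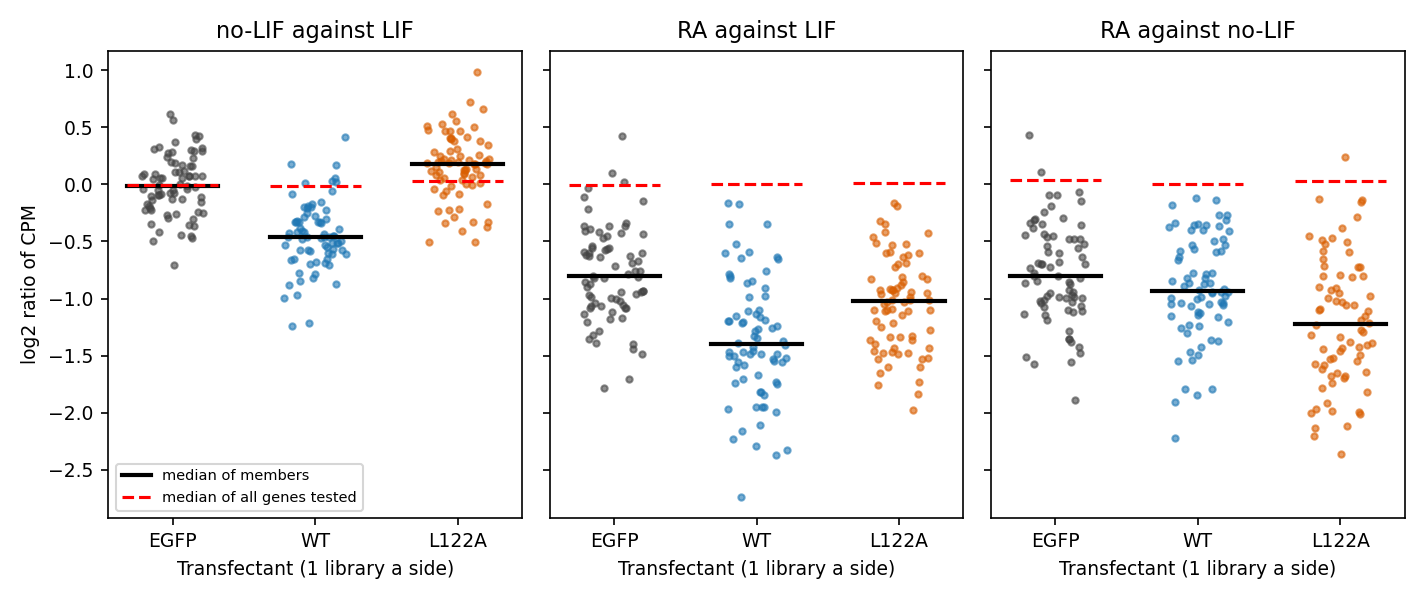
Log2 ratio of CPM (y axis) for each of the 74 tested members in 3 culture comparisons (panels) and 3 transfectants (x axis), 1 library a side; black bars are the members' medians and red dashed lines the medians of all genes. With RA every member median lies at least 0.80 below the all-gene median, whereas for no LIF it is 0.44 below in WT and 0.15 above in L122A.

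From LIF to RA the members' median stood 0.80 below all genes in EGFP, 1.41 below in WT and 1.04 below in L122A. Members at least 1.5-fold lower numbered 51 (background 21.7%), 69 (24.9%) and 63 (21.8%), and none was higher. Mrpl15 showed the range, 3.44-fold lower in EGFP (interval 3.29 to 3.59), 6.66-fold in WT (6.38 to 6.96) and 3.94-fold in L122A (3.79 to 4.10). From no LIF to RA, 49 (background 20.5%), 51 (21.8%) and 62 (23.2%) members were lower, with medians 0.84, 0.93 and 1.25 below all genes. The RA comparisons of 1 transfectant share their RA library.

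The difference of the RA response between the Nanog transfectants and EGFP had a member median of -0.40 from LIF (all genes 0.02) and -0.27 from no LIF (all genes -0.03). No member passed in either (edgeR; background 0.00714% and 0.0429% of genes called), with 4 and 2 members at an unadjusted p below 0.05, and DESeq2 and limma called none. Mrpl33, a short large-subunit protein with a bacterial counterpart, had the smallest p from LIF. It was at 136.7, 260.8 and 212 CPM with LIF and 134, 93.0 and 89.0 with RA in EGFP, WT and L122A, so in EGFP the pair was nearly level (difference -1.35, SE 0.45, adjusted p = 0.366, edgeR). Mrpl32, which is cut to its mature form by a mitochondrial protease, had the smallest p from no LIF, with 69.8, 72.3 and 103 CPM without LIF and 56.0, 33.0 and 32.2 with RA (difference -1.11, SE 0.43, adjusted p = 0.47, edgeR). With library sizes alone the member median from LIF was 0.01 and that of all genes 0.42, so the direction of this difference holds only relative to all genes.

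No member passed in the comparisons of transfectants over all cultures. From EGFP to WT the member median was 0.05 (all genes 0.00) and 0 of 74 members passed (edgeR; background 0.322%), with none at an unadjusted p below 0.05. From EGFP to L122A it was 0.15 (all genes 0.01) with 0 called (background 2.88%) and 1 at an unadjusted p below 0.05. From WT to L122A it was 0.10 (all genes 0.01) with 0 called (background 0.0%) and none at an unadjusted p below 0.05. The medians of WT against EGFP and of L122A against WT, relative to all genes, changed sign when single libraries were left out (to -0.10 and -0.03 at the lowest). DESeq2 and limma called no member in any of the 3. Mrpl48, a mitochondria-specific large-subunit protein, had the smallest p from EGFP to WT (0.57, SE 0.29, adjusted p = 0.502, edgeR), Mrpl28 from EGFP to L122A (0.53, SE 0.23, adjusted p = 0.263) and Mrpl4 from WT to L122A (0.33, SE 0.17, adjusted p = 0.999).

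Within single cultures the members' order changed. With LIF, WT had 20 members at least 1.5-fold above EGFP and none below (background 11.6% higher), and the median was 0.43 above all genes. Mrpl48 led at 2.13-fold (76.6 against 35.9 CPM, interval 1.97 to 2.31), before Mrpl14 at 2.05-fold and Mrpl28 at 1.94-fold. Both Mrpl48 and Mrpl14 overlap another gene, and the interval does not cover reads shared with it. Without LIF, WT had 1 higher (Mrpl15) and 3 lower (background 11.7% and 12.0%), and with RA none higher and 3 lower (background 10.8% lower). These were smaller shares than the background.

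L122A exceeded EGFP in 5 of 74 members with LIF, a smaller share than the background (8.5% higher). Without LIF it did in 13, a slightly larger share than the background (14.3%). With RA 3 members were lower, a smaller share than the background (15.2%). Without LIF Mrpl15 was 2.14-fold higher in L122A than in EGFP (interval 2.07 to 2.21). Against WT, L122A had 4 members lower with LIF, a share near the background (4.99%), and none different with RA. Without LIF 18 were higher, a larger share than the background (9.87%). Mrpl46 (2.32-fold, interval 2.09 to 2.58), Mrpl41 (2.19-fold) and Mrps23 (2.16-fold) led the 18. These were also members with large WT differences on LIF withdrawal, and both comparisons share the WT library without LIF.

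Members often sit back to back with another gene. A gene on the opposite strand started within 1000 bases of the start of 31 of 75 members (41.3%), against 19.3% of tested genes. In the mm9 coordinates of the file, Mrps11 and Mrpl46 start 412 bases apart and both fell with RA (-0.92 and -1.67). The 2 genes overlap between these starts, so reads may be shared. For 27 pairs the partner was a tested gene outside the set: 24 of the members fell from LIF to RA (median -1.09), and 10 of the partners fell and 2 rose (median -0.11). The background was 23.8% of tested genes called lower and 24.5% called higher. Mrpl49 fell (-1.12) beside Fau (-1.51), which encodes a cytosolic ribosomal protein, and Mrpl47 (-1.36) beside Ndufb5 (-1.14), a complex I subunit. Mrpl14 fell (-1.15) while its partner Tmem63b, which it overlaps, rose (1.06, adjusted p = 0.00439, edgeR).

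Mitoribosome subunit genes that the symbol rule did not take fell as well. All 7 in the list of subunits under other names fell from LIF to RA (median -1.29), among them Chchd1 (-1.69) and Mrp63 (-1.55), and all 7 fell from no LIF. Mrpl42, a large-subunit gene that the table lists as D10Ertd322e, fell from LIF to RA (-1.54, SE 0.16, adjusted p = 0.000436, edgeR) and from no LIF to RA (-1.33, SE 0.16, adjusted p = 0.000796, edgeR). Of 23 genes of mitoribosome assembly and RNA modification 14 fell and none rose (median -0.76), led by Fastkd2 (-1.65), an RNA-binding protein needed for the large-subunit RNA, and Ftsj2 (-1.48), a methyltransferase of that RNA. Of 13 genes listed for translation factors, a list that also holds Lrpprc, Slirp and Mtfmt, 8 fell (median -0.73). The largest falls were those of the release factor gene Mtrf1 (-1.98) and the recycling factor gene Mrrf (-1.31). Among 17 mitochondrial aminoacyl-tRNA synthetases 11 fell and 1 rose (median -0.73). Mars2 (-1.60) and Lars2 (-1.18) fell most and Wars2 rose (0.89). Lars2 stood apart in level, at 3924 to 11700 CPM against at most 68.5 CPM for the other 16 synthetases in any library. It was lowest in the 3 RA libraries (3924 to 4726 CPM), which also had the lowest share of named ribosomal RNA, and the part of that share in the Lars2 value was not tested.

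Genes that keep and transcribe mitochondrial DNA moved less alike: 4 of 10 fell and 1 rose (median -0.24). The background from LIF to RA was 23.8% of tested genes called lower and 24.5% called higher. The elongation factor gene Tefm, listed as 1110002N22Rik, fell by 1.82 and Mterf by 1.66, whereas Polg, the DNA polymerase, rose (0.82). By library, Polg went from 17.1 to 20.1 CPM in EGFP, 15.5 to 34.7 in WT and 16.65 to 33.9 in L122A. Of 8 tested regulators of mitochondrial biogenesis, Mycn (-1.67) and Gabpb1 (-0.64, a subunit of GABP) fell and Myc rose (0.70). For this list the share called lower was near the background and the share called higher was below it. Nrf1 (-0.11, adjusted p = 0.65, edgeR) and Gabpa (-0.32, adjusted p = 0.247, edgeR) did not pass.

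None of the 13 mitochondrially encoded protein genes and neither of the 2 mitochondrially encoded ribosomal RNAs passed from LIF to RA (edgeR; medians 0.13 and 0.21). The transfectants differed in direction. From LIF to RA the summed protein genes went from 3468 to 5248 CPM in EGFP, 5633 to 4067 in WT and 3746 to 4618 in L122A. The ribosomal RNAs went from 77290 to 107300 CPM in EGFP, 146800 to 121000 in WT and 95340 to 91100 in L122A. None passed the test of a different RA response in the Nanog transfectants either (edgeR; background 0.00714% of genes called from LIF and 0.0429% from no LIF). From no LIF to RA the summed protein genes rose from 2116 to 5248 CPM in EGFP. They fell from 4529 to 4067 in WT and from 5570 to 4618 in L122A. Their median difference of this response, Nanog transfectants minus EGFP, was -1.71 (all genes -0.03). The ribosomal RNAs rose in EGFP (58060 to 107300 CPM) and WT (97170 to 121000) and fell in L122A (136500 to 91100). The summed level of members was 2.27% to 3.24% of that of the mitochondrial ribosomal RNAs in the RA libraries and 5.35% to 9.80% in the other 6. Cytosolic ribosomal protein genes also fell, 83 of 84 from LIF to RA (median -1.33), most of all Rpl39l (-3.26). Members summed to 5.19%, 4.36% and 5.00% of the cytosolic ribosomal protein level with RA in EGFP, WT and L122A. The LIF libraries gave 4.62%, 4.23% and 4.21% and the no-LIF libraries 3.92%, 3.52% and 3.998%, so within each transfectant this share was highest with RA.

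**Figure D5:**
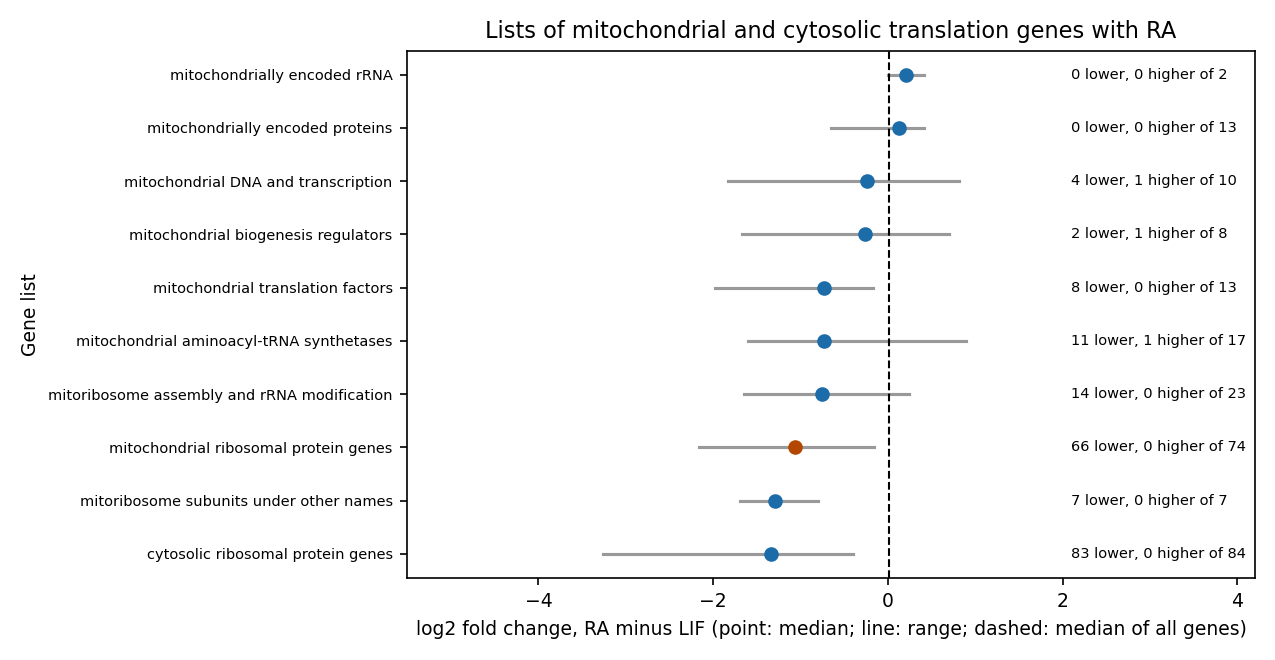
Median (point) and range (line) of the log2 fold change from LIF to RA (x axis) for the mitochondrial ribosomal protein genes (brown) and other lists (blue, y axis), with the number of genes that passed the test at the right; the dashed line is the median of all genes. The members' median of -1.06 lies between those of the cytosolic ribosomal protein genes (-1.33) and of the assembly genes (-0.76).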

How the data were processed

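Total RNA of RF8 cells was extracted with an RNeasy kit and sequenced on Illumina libraries, per the labels. The submitters' processing notes name TopHat2 2.0.11 and mm9; the counting program, strand handling and read filters are not stated in the sources used here. The authors deposited a raw count and an FPKM value per gene and library; FPKM matched count over length and total within 1% in genes above 5 FPKM, per the file headers and values. The count and FPKM columns of all 3 LIF libraries carry a culture word that is in no label and were assigned by elimination, and L122 was taken as L122A.

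Tests covered the 13996 genes reaching 1 CPM in 3 or more libraries, with edgeR 4.0.16 in R 4.3.3 (quasi-likelihood, robust, TMM factors 0.810 to 1.255, additive model with 4 residual degrees of freedom; class-by-culture model with 3); a call is an adjusted p below 0.05. The SE was taken as the size of the log2 fold change divided by the root of F. Single-library log2 ratios used a prior count of 2. Intervals are exact, at 95%, and cover counting error only, since reads are not independent molecules. DESeq2 1.42.0, limma 3.58.1 (log2 FPKM with a pseudocount of 1), other scalings, no filter and leaving out each library were alternatives. The code was tested on simulated data. Named genes are, per comparison and direction, the 5 members called with the largest change, the member with the smallest p where none was called, the 3 largest single-library ratios each way (shown for most comparisons), the 5 highest and lowest by FPKM, and the 2 largest called changes each way per other list; Mrps2, Mrpl9 and the members named with neighbours, the S18 genes and the regulators that did not pass were chosen after their values were seen. The members and lists were chosen with earlier results of these data known. Promoters and their coordinates are RefSeq's (GRCm38.p6), another build than the file's mm9.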

Additional observations from a re-analysis of the deposited data

Results flagged for a closer look

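The members' response was not alike in all libraries of a comparison, with opposite signs between transfectants or cultures. These values are medians over 74 members of the log2 ratio, less the median of all genes, from 1 library a side, and the differences between them were not tested. The test by class of transfectant pools WT with L122A, so it does not bear on differences between those transfectants. From LIF to no LIF the value was -0.0082 in EGFP, -0.4434 in WT and 0.1502 in L122A. From EGFP to WT it was 0.4258 with LIF, -0.0845 without LIF and -0.1505 with RA. From EGFP to L122A it was 0.1945 with LIF, 0.2662 without LIF and -0.0591 with RA. From WT to L122A it was -0.2101 with LIF, 0.4092 without LIF and 0.1146 with RA. These comparisons share libraries, so they are not independent of each other.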

How the results depend on the processing

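No paired analysis was possible because the labels carry no replicate numbers to pair by; the main model already compares cultures within transfectants, since it holds the transfectant as a term. From LIF to RA 66 members were called lower, 43 to 67 when 1 library was left out, with the lowest count without the WT library with RA. From no LIF to RA 59 were called lower, 38 to 62 when 1 library was left out (again lowest without WT with RA), and 36 with library sizes alone. The cause was not tested, except that leaving out a library also leaves fewer samples. Of the 66 and 59 members called, 38 and 32 were called under each of the 16 alternatives. The fitted fold change was below 0 in every fit for 70 members from LIF to RA and 68 from no LIF. In the other 7 comparisons no alternative that could be fitted called a member. The members' median less that of all genes moved by less than its spread over matched pairs in all 144 alternative values. That spread was the SD of single-library medians, 0.17 to 0.42 by comparison, which is a wide limit for small values. Relative to all genes, the members' median nonetheless changed sign in 4 comparisons. From LIF to no LIF it went from -0.116 to 0.0613 without the WT library with LIF and 0.0199 without the WT library without LIF, and the difference of that response between Nanog transfectants and EGFP from -0.1748 to 0.0279 without the latter library. From EGFP to WT it went from 0.0434 to -0.0654 without the EGFP library with LIF, -0.0957 without the WT library with LIF and -0.0009 with no filter. From WT to L122A it went from 0.0903 to -0.0255 and -0.0288 without the WT and the L122A library without LIF. Among the 55 tested members that no other gene overlaps, an alternative chosen after seeing the data, 49 were called lower from LIF to RA. Of 90 single-library counts, 26 moved by over 1.5 times, all under a 2-fold limit or with library sizes alone. Leaving out an EGFP library makes some differences of responses inestimable, and these have no value. With 1 library per combination, differences between single libraries cannot be set against replicate cultures.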
